A study of Homo sapiens with 4 samples.

Results

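The genes described here are 10 genes of the YAP and TEAD pathway: the coactivators YAP1 and WWTR1, the DNA-binding factors TEAD1 and TEAD4, and the target genes CCN1, CCN2, ANKRD1, CRIM1, AMOTL2 and AXL. They were chosen by name from 19821 protein-coding genes, with earlier results of these data known. Every H3K27ac and SMARCB1 peak in each gene record or within 20 kb of it was taken. All 10 were found in the annotation. The data are ChIP-seq peak lists from SK-Hep1, an established line that the submitters label as hepatic adenocarcinoma. H3K27ac, the acetylation of histone H3 found at active promoters and enhancers, was mapped in cells with an shRNA against SMARCB1 and in cells with a control shRNA. Both stably expressed the shRNA and were selected with puromycin at 1.25 μg/mL. SMARCB1 belongs to the core of the SWI/SNF remodelling complexes. It was itself mapped in a further library of the same line, whose shRNA status the labels do not give. The same puromycin concentration is given for that library. With 1 library per group, replicate error is unknown and nothing below was tested between conditions.

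In the Hippo pathway a kinase cascade of MST and LATS kinases phosphorylates YAP and its paralogue TAZ, the product of WWTR1, and keeps them out of the nucleus. Unphosphorylated YAP and TAZ enter the nucleus, where they have no DNA-binding domain of their own and act through TEAD factors, often at enhancers that also bind AP-1. CCN1 and CCN2 encode secreted matricellular proteins and ANKRD1 an ankyrin repeat protein, and all of them are widely used as readouts of YAP activity. In liver, YAP is known for its control of organ size and for its activity in liver cancer.

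The knockdown library held 10203310 tags and the control library 13235203 tags, a ratio of 0.771 in depth. The peak calls also differed in fragment length, 158 bp in the knockdown library and 190 bp in the control library. Their tag thresholds were 10 in the knockdown library and 11 in the control library. Over the whole genome, peaks covered 70.9 Mb in the knockdown library and 79.5 Mb in the control library, a ratio of 0.892. Values at the 10 genes are therefore given beside the same values over all genes. The part of depth, fragment length or tag threshold in any of them was not tested. Of 11 hepatocyte markers, 5 carried H3K27ac in both libraries and 1 in the knockdown library only, while ALB, APOB, TTR, HNF4A and CYP3A4 had none in either library. Among 7 endothelial markers, CDH5 and VWF carried it in both libraries and PECAM1 in the knockdown library only. KDR, TEK, TIE1 and CLDN5, of the same list, had no H3K27ac in either library. All 6 epithelial and all 7 mesenchymal markers carried it in both, counted like the 10 genes with 20 kb on each side, which can take in neighbouring genes. By the same count 15587 of all 19821 protein-coding genes carried it in both. Several hepatocyte markers and several endothelial markers thus had no H3K27ac peak in this line.

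TEAD factors bind a short element whose core is GGAATG, read on either strand, and the promoters of CCN2 and ANKRD1 are shown because they hold more than 1 match. H3K27ac covered the 250 bases before the start site in both libraries at these and at 8 of the 9 promoters looked at in all. Sequences are from RefSeq (GRCh38.p14) and give the 250 bases before the annotated start site, 5′ to 3′ on the gene's strand, with each match to the TEAD core in capitals. CCN2 lies on the minus strand at chr6:131951373-131951622 and ANKRD1 on the minus strand at chr10:90921088-90921337.
CCN2: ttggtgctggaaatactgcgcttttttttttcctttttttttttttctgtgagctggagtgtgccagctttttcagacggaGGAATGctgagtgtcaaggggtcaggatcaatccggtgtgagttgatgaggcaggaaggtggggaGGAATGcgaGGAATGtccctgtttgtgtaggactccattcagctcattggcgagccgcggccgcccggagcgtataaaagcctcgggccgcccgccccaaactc
ANKRD1: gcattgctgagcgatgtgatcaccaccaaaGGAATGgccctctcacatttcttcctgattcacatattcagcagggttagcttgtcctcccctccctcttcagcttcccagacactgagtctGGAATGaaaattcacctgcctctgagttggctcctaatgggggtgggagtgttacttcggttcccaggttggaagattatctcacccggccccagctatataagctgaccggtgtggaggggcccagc

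The CCN2 promoter held 3 matches, at −169, −104 and −95, counted in bases from the start site to the first base of the match. The ANKRD1 promoter held 2, at −220 and −128, and also the AP-1 element TGANTCA at −195. Single matches were found at YAP1, at the start site of AMOTL2 that lies inside the gene record and at the inner start site of AXL, and they are shown as 30-base stretches of the gene's strand with the match in capitals, CATTCC being the core on the other strand.
YAP1, plus strand, chr11:102110273-102110302: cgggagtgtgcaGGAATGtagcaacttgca
AMOTL2, minus strand, chr3:134374499-134374528: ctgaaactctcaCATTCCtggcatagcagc
AXL, plus strand, chr19:41226531-41226560: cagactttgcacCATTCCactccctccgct

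The promoter table covered 6 of the 10 genes, with 9 start sites, and 5 of these 9 promoters held the TEAD core within the 300 bases from 250 before to 50 after the start. Among all 22132 promoters of protein-coding genes, 12.2% held at least 1 match, 1.06% at least 2 and 0.104% at least 3. The AP-1 element was in 1 of the 9 and in 6.15% of all promoters, and the CArG box, the element of serum response factor, was in 0 of the 9 and in 1.25%. All 3 motifs were searched on both strands. A match describes the letters only and says nothing about binding in these cells. Promoter sequences of TEAD1, TEAD4, CCN1 and CRIM1 were not used here.

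All 10 genes carried H3K27ac in both libraries, beside 15587 of all 19821 protein-coding genes. At 9 of the 10 the covered length was shorter in the knockdown library, or at 7 of the 10 after scaling to the covered length of each whole list. The median log2 ratio of knockdown over control was −0.37 for the 10 genes and −0.17 for the 15587 protein-coding genes with H3K27ac in both libraries. The middle 50% of those 15587 ran from −0.34 to −0.02, so most of them were also shorter in the knockdown library. With the gene records alone, without flanks, the medians were −0.13 for the 10 genes and −0.14 for all genes, and 5 of the 10 were shorter in the knockdown library. TEAD4 alone was shorter by 1.5-fold or more, and no gene was longer by that much. Over all 16162 genes with H3K27ac in either library, 10.8% were shorter and 3.53% longer by 1.5-fold or more. A count of 1 in 10 is near that background.

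**Figure D1:**
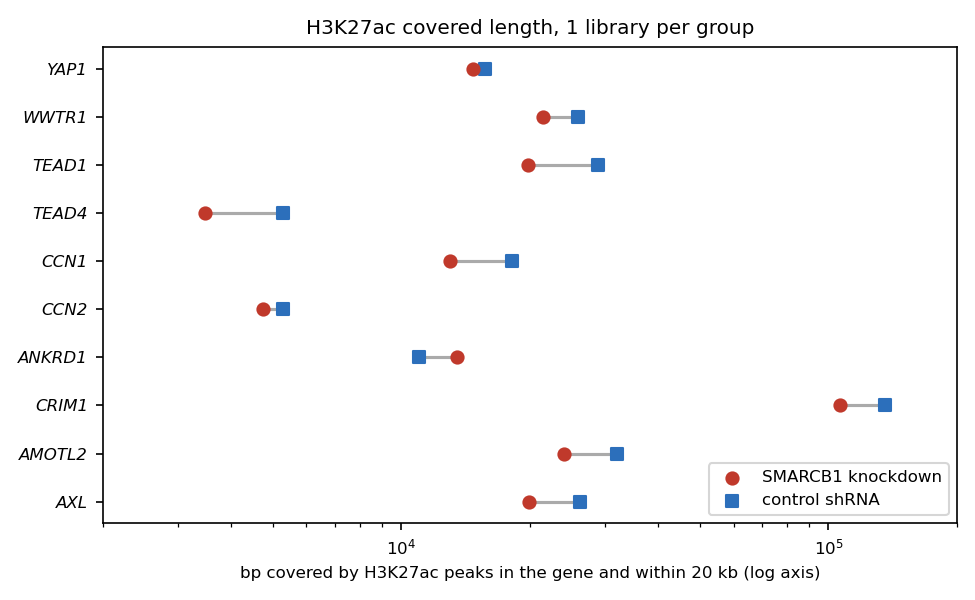
Length covered by H3K27ac peaks in each gene and within 20 kb, in bp on a log axis, with 1 library per group (circles, SMARCB1 knockdown; squares, control shRNA). The circle lies left of the square at every gene but ANKRD1, and CRIM1 stands far to the right at 106364 bp in the knockdown library and 135864 bp in the control library.

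YAP1, the main transcriptional coactivator of the pathway (chromosome 11, 102110447 to 102233424, hg38), had 14710 bp covered in 6 peaks in the knockdown library and 15697 bp in 8 peaks in the control library. Its covered length differed little, with a ratio of 0.937, and the direction turned with the gene record alone, with the wider 50% of each list, with peaks of 1000 bp or more and after scaling. The gene record alone had 11579 bp in the knockdown library and 11530 bp in the control library. All 6 knockdown peaks had a counterpart in the control library. The control library had 2 further peaks, of 1551 bp in the gene, 9443 bp from its start, and of 501 bp beyond its far end. Of the 6 shared peaks, 4 were wider in the knockdown library and 2, the start-site peak among them, were narrower. The widest gap in width was 27714 bp into the gene, where the knockdown library had a peak of 1513 bp and the control library one of 628 bp.

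WWTR1, which encodes TAZ (chromosome 3, 149517235 to 149724788), had 21453 bp in 9 peaks in the knockdown library and 25950 bp in 11 peaks in the control library. Of the control length, 22.0% was not covered in the knockdown library. Its widest control peak, of 10505 bp, was read as 2 knockdown peaks of 5874 and 3793 bp with a gap of 891 bp between them. At the inner of its annotated start sites the peaks were nearly equal, at 3474 bp in the knockdown library and 3567 bp in the control library, and the outer start site carried no H3K27ac in either.

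TEAD1, a DNA-binding partner of YAP and TAZ (chromosome 11, 12674421 to 12944737), had 19860 bp in 12 peaks in the knockdown library and 28826 bp in 17 peaks in the control library, a ratio of 0.689. The difference lay away from its start, where the peak was 4437 bp in the knockdown library and 4314 bp in the control library. Elsewhere 6 control peaks, of 501 to 1529 bp, had no knockdown counterpart, and some shared peaks were narrower, such as one near the far end with 3291 bp in the knockdown library and 4366 bp in the control library. A single narrow peak of 501 bp was found in the knockdown library only.

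TEAD4, the other TEAD gene of the group (chromosome 12, 2959397 to 3040676), had 3467 bp in 1 peak in the knockdown library and 5278 bp in 4 peaks in the control library, a ratio of 0.657. Both libraries shared the start-site peak, of 3467 bp in the knockdown library and 3775 bp in the control library. The other 3 control peaks were each 501 bp wide, close to the 500 bp peak size of the caller, and they make up most of the difference. With peaks of 1000 bp or more, TEAD4 was not shorter by 1.5-fold, and with windows of 5, 10 or 50 kb it was not either.

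**Figure D2:**
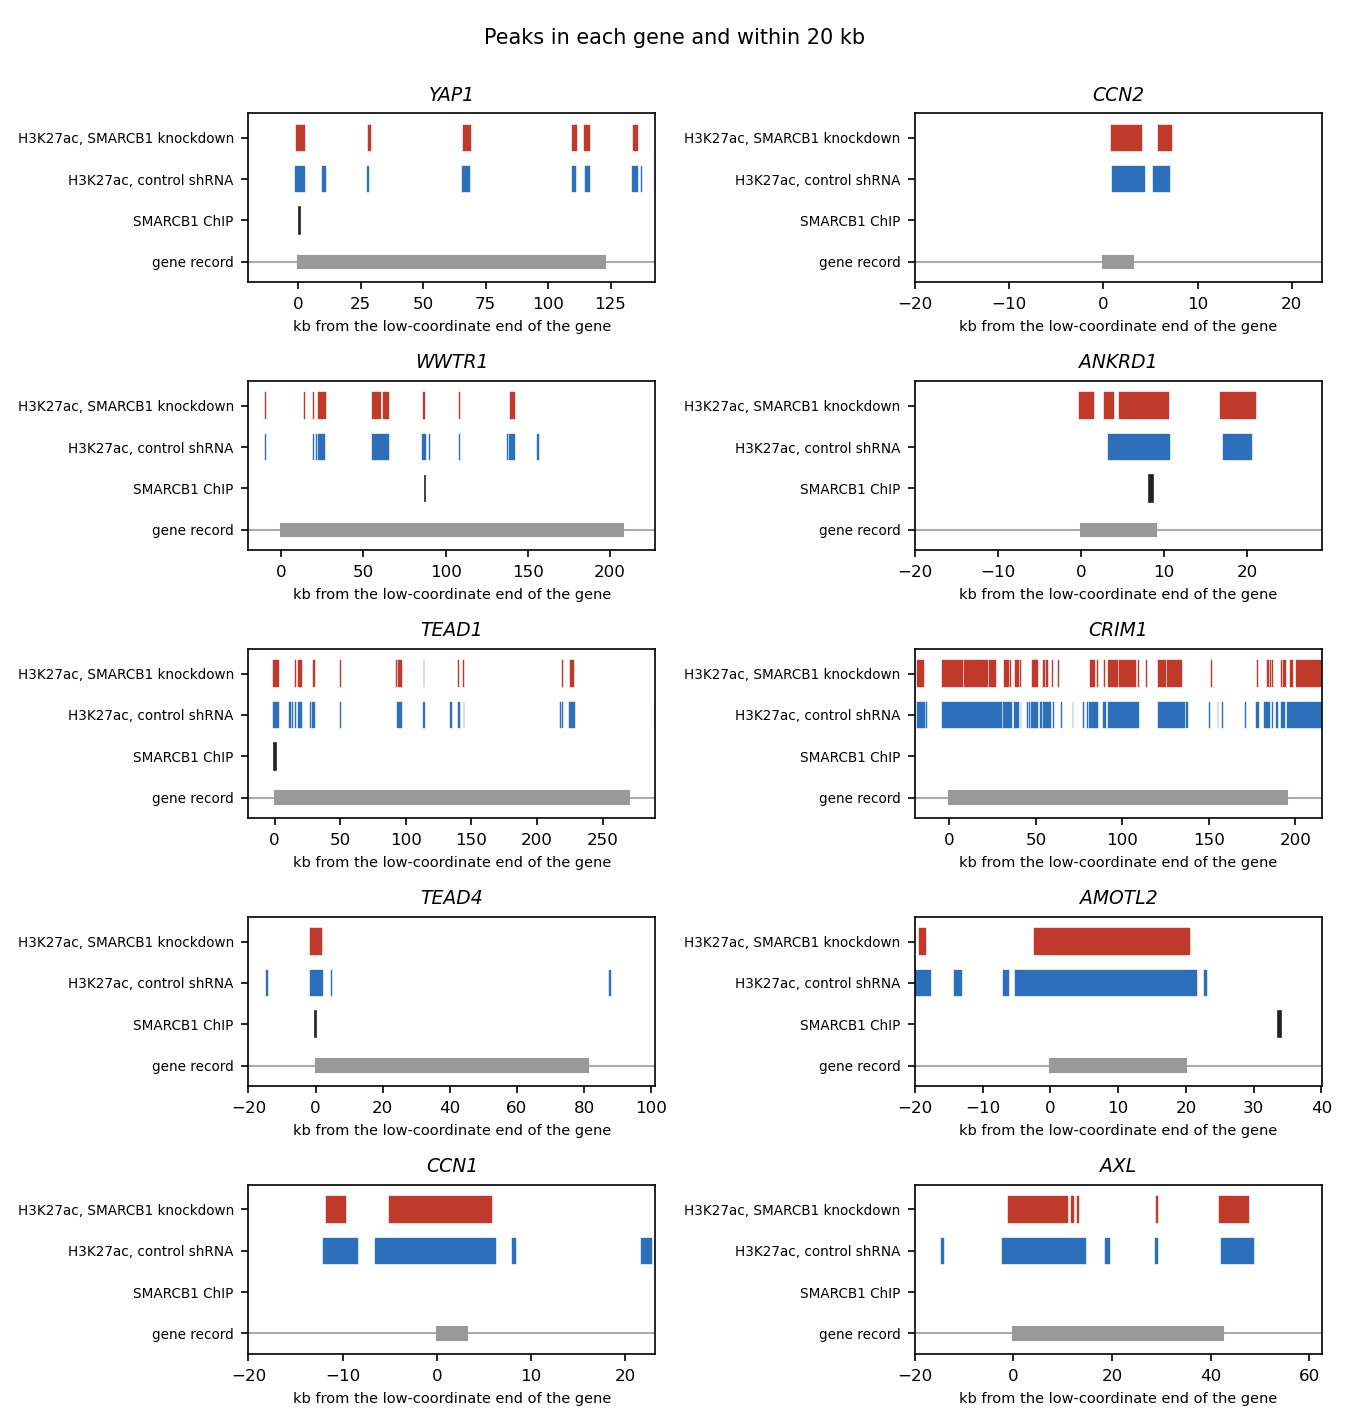
Peaks at each of the 10 genes, with distance in kb from the low-coordinate end of the gene record on the x axis (red, H3K27ac in SMARCB1-knockdown cells; blue, H3K27ac with the control shRNA; black, SMARCB1; grey, gene record). Start-site peaks are present in both H3K27ac rows at all 10 genes, and the blocks found in 1 row only are mostly narrow and mostly in the control row.

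CCN1, a secreted matricellular protein formerly named CYR61 (chromosome 1, 85580761 to 85583950), had 13028 bp in 2 peaks in the knockdown library and 18195 bp in 4 peaks in the control library. The whole gene record of 3190 bp was acetylated in both. The domain over the gene measured 10911 bp in the knockdown library and 12864 bp in the control library, and its knockdown edges lay inside the control edges on both sides. Of the total covered length, 4643 bp in the knockdown library and 7740 bp in the control library lay on the neighbouring gene DDAH1, onto which the domain over CCN1 also extends. CCN2, formerly CTGF (chromosome 6, 131948176 to 131951372), differed less, with 4751 bp in the knockdown library and 5296 bp in the control library, each in 2 peaks, and its direction turned with the gene record alone and after scaling. The peak over its start site, which contains the promoter printed above, was 3294 bp in the knockdown library and 3491 bp in the control library. All of the CCN2 length also lies on the antisense gene CCN2-AS1, and a ChIP peak has no strand.

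ANKRD1, which encodes a cardiac ankyrin repeat protein that shuttles to the nucleus (chromosome 10, 90912096 to 90921087), was the only one of the 10 with a longer covered length in the knockdown library, at 13540 bp against 11020 bp, a ratio of 1.23. The start-site peak itself was narrower in the knockdown library, at 6061 bp against 7516 bp in the control library, which overlapped a further knockdown peak of 1308 bp. The extra length lay in a knockdown-only peak of 1787 bp over the 3′ end of the gene and in a peak of the upstream flank, 4384 bp wide in the knockdown library and 3504 bp in the control library. The ratio was above 1 under each of the 9 alternatives that changed the window, the peaks, the gene assignment or the scaling.

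CRIM1, a transmembrane protein that binds bone morphogenetic proteins (chromosome 2, 36355778 to 36551135), was acetylated over much of its length. H3K27ac covered 45.2% of the gene and its 20 kb flanks in the knockdown library and 57.7% in the control library, more than at any other of the 10 genes. The control peak over the start site was 34488 bp wide, the 7th widest of 35307 in that list. In the knockdown library 3 peaks of 12060, 13769 and 4239 bp lay there and covered 87.2% of it, with gaps of 655 and 513 bp. The lower edges of both start-site peaks lay within 5 bp of each other. Part of the CRIM1 window belongs to the neighbour FEZ2, with 17334 bp in the knockdown library and 18878 bp in the control library.

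AMOTL2, an angiomotin-family scaffold that binds YAP (chromosome 3, 134355345 to 134375417), was covered end to end in both libraries by 1 peak, of 23062 bp in the knockdown library and 26883 bp in the control library. Within the window, 24091 bp was covered in the knockdown library and 31932 bp in the control library, and every knockdown base was also covered in the control. On the side beyond its 3′ end, a control domain of 29761 bp, the 14th widest of its list, reached into the window, where the knockdown library had a peak of 1029 bp. That domain was 94.7% covered in the knockdown library as well, mostly outside the window.

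AXL, a receptor tyrosine kinase (chromosome 19, 41219223 to 41261766), had 19945 bp in the knockdown library and 26168 bp in the control library, each in 5 peaks. Its start-site domain, which covers both annotated start sites, was 12188 bp in the knockdown library and 17003 bp in the control library. The control domain held 3 knockdown peaks, of 12188, 645 and 501 bp, which covered 78.4% of it. At the far end of AXL a peak of 6110 bp in the knockdown library and 6794 bp in the control library reached into the neighbour HNRNPUL1.

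Start-site peaks were then set side by side, with the low-coordinate end of the gene record in place of the start site for TEAD1, TEAD4, CCN1 and CRIM1. All 10 genes had such a peak in both libraries. At the 4 regulators the widths were close, with ratios from 0.918 at TEAD4 to 1.03 at TEAD1. At the 6 targets the ratios were 0.350 for CRIM1, 0.717 for AXL, 0.806 for ANKRD1, 0.848 for CCN1, 0.858 for AMOTL2 and 0.944 for CCN2. The control peaks were 3567 to 4314 bp wide at the regulators, 3491 bp at CCN2 and 7516 to 34488 bp at the other targets. The part of peak width in these ratios was not tested. CRIM1 was therefore the only one narrower by 1.5-fold or more, and none was wider by that much. The CRIM1 control peak was divided, and 3 knockdown peaks together covered 87.2% of it. Of 9690 protein-coding genes of the promoter table with a start-site peak in both libraries, 7.75% were narrower and 0.918% wider by 1.5-fold or more. Where a gene had several start sites, the one with the widest control peak was taken, which can favour narrower knockdown peaks. That table has no entry for TEAD1, TEAD4, CCN1 and CRIM1.

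**Figure D3:**
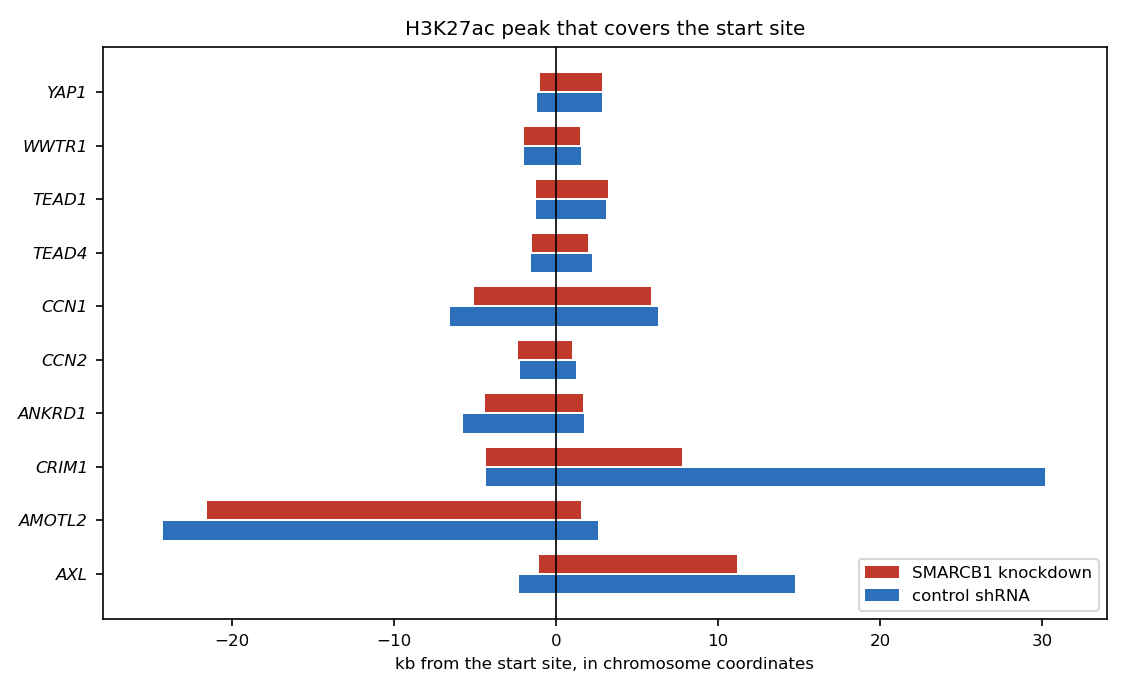
The H3K27ac peak that covers the start site of each gene, drawn as a bar in kb from the start site in chromosome coordinates (red, SMARCB1 knockdown; blue, control shRNA; 1 library each). Bars of the 4 regulators nearly coincide, and the control bar of CRIM1 runs to 30.2 kb where the knockdown bar ends at 7.75 kb. At CRIM1, 3 knockdown peaks together covered 87.2% of that control peak, and only the one at the start site is drawn.

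The division of wide control peaks was looked at after their values were seen. The 10 genes had 9 control peaks of 10 kb or more, and 7 of them overlapped 2 or more knockdown peaks. Over the whole control list, 49.5% of 554 such peaks did so. More of the 9 lay at CRIM1 than at any other of the 10 genes, and all of those at CRIM1 were divided. Knockdown peaks covered between 78.4% and 94.7% of each of the 9, and 9 of the 10 gaps between neighbouring knockdown peaks were under 1000 bp, from 513 bp upwards. The largest gap, of 1203 bp, lay beyond CRIM1 on the FEZ2 side. In both libraries the caller's peak size was 500 bp and its minimum distance 1000 bp, and the part of these settings in the gaps was not tested.

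Peaks found in 1 library only were mostly narrow. In the knockdown library 7 of the 74 peaks at the 10 genes, or 9.46% (95% Wilson interval 4.66 to 18.3%), had no control counterpart, against 12.2% of the whole knockdown list. In the control library 37 of 90, or 41.1% (31.5 to 51.4%), had no knockdown counterpart, against 17.7% of the whole control list. These 37 peaks were 501 to 1551 bp wide, with a median of 627 bp, and the intervals cover the counting of peaks only. The splits by width and by place and the count without CRIM1 that follow were chosen after the values were seen. Among control peaks under 1000 bp, 27 of 37 at the 10 genes were control-only, or 73.0% (57.0 to 84.6%), against 52.4% of the whole list. Among those of 1000 bp or more it was 10 of 53, or 18.9% (10.6 to 31.4%), against 3.81%. CRIM1 held 15 of the 37 and TEAD1 6, and without CRIM1 the count was 22 of 58, or 37.9% (26.6 to 50.8%). By place, 25 of 71 control peaks in the gene records were control-only, or 35.2% (25.1 to 46.8%). In the flanks it was 12 of 19, or 63.2% (41.0 to 80.9%), and no share of the whole list is given for this split. Peaks of 1 gene share their surroundings and their library, so they are not independent observations.

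SMARCB1 peaks lay in 5 of the 10 genes and within 20 kb of a sixth, AMOTL2. Over all 19821 protein-coding genes, 28.2% had one by the same rule. The median window was 101912 bp for the 10 genes and 64482 bp for all genes, and the part of window size in this count was not tested. Each of the 6 genes had 1 SMARCB1 peak, and with only the 1000 peaks of highest value TEAD1 alone kept one. The number attached to each peak is the authors' own, without a stated unit, and is used here only to order peaks within the list.

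The TEAD1 peak was the strongest of the 6 by that number, at 32.7, rank 174 of 4453. It was 1377 bp wide, lay across the start of the gene (12673827 to 12675203) and was classed as promoter-TSS by the authors. The TEAD4 peak, of 500 bp (2959171 to 2959670), was also classed as promoter-TSS, with a value of 12.7. At YAP1 a 500 bp peak began 196 bp inside the gene and was classed as exon, with a value of 13.7. At ANKRD1 the peak ended 350 bp inside the gene from its start site and was classed as intron, with a value of 10.6. These 4 peaks all lay under the start-site H3K27ac peaks of both libraries. The median value of the SMARCB1 list was 11.6.

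The WWTR1 peak, with a value of 8.98, lay in an intron 53.2 kb from the nearest annotated start site. It overlapped an H3K27ac peak that was 1336 bp in the knockdown library and 2109 bp in the control library. The AMOTL2 peak lay 13.5 kb upstream of the outer start site, was classed as intergenic with a value of 10.0, and had no H3K27ac over it in either library. CCN1, CCN2, CRIM1 and AXL had no SMARCB1 peak in the window, and the nearest ones were 33.1, 812, 645 and 100 kb from the gene. The 4 regulators thus all had a SMARCB1 peak, and 2 of the 6 targets did. Windows were 121280 to 310317 bp at the regulators, 235358 bp at CRIM1 and 43190 to 82544 bp at the other targets. The part of window size in this division was not tested. At the 4 genes without a peak the ratio of covered length ran from 0.716 to 0.897, and at the 6 genes with one from 0.657 to 1.23, so the ranges overlap.

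Other genes of the pathway were counted by the same window, in lists also chosen with earlier results of these data known. Of 16 Hippo kinases and adaptors, none was shorter or longer by 1.5-fold in the knockdown library, beside 10.8% and 3.53% of all genes. In this list 14 lay below the control and 4 had a SMARCB1 peak (STK4, TAOK2, TAOK3 and DCHS1). The 2 above the control were FRMD6 and LATS1. LATS2, a kinase that is also a YAP target, stands in this list and in that of the targets. FRMD6, a FERM-domain protein, had 50480 bp in the knockdown library and 48491 bp in the control library, and WWC1, which encodes the KIBRA scaffold, had 38861 bp in the knockdown library and 42074 bp in the control library. The median log2 ratio of this list was −0.16, close to that of all genes. Among all genes with H3K27ac in both libraries the upper quartile was −0.02, so most lay below the control.

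Of 11 TEAD partners and other cofactors, 9 carried H3K27ac in either library, beside 16162 of all 19821 protein-coding genes. In this list 2 were shorter by 1.5-fold or more, beside 10.8% of all genes. The median log2 ratio was −0.33 over the 8 with H3K27ac in both libraries. VGLL1 and AMOT had none in either library. VGLL3, a vestigial-like TEAD cofactor, had 12140 bp in the knockdown library and 20435 bp in the control library. VGLL2, another cofactor of that family, had a single control peak of 1123 bp and was listed at 0 in the knockdown library. RUNX1 and RUNX2, Runt-family transcription factors, differed in direction. RUNX1 had 21861 bp in the knockdown library and 27182 bp in the control library, and RUNX2 had 20422 bp in the knockdown library and 17814 bp in the control library.

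Of 23 other YAP and TEAD targets, all carried H3K27ac in both libraries, beside 15587 of all 19821 protein-coding genes. In that list 4 were shorter by 1.5-fold or more, beside 10.8% of all genes with H3K27ac in either library. None was longer by that much, beside 3.53% of all genes. F3, the gene of tissue factor, had 9090 bp in the knockdown library and 15481 bp in the control library. ASAP1, an Arf GTPase-activating protein, had 51798 bp in 27 peaks in the knockdown library and 93959 bp in 52 peaks in the control library. MYOF, a ferlin membrane protein, had 52774 bp in the knockdown library and 64532 bp in the control library. The other 2, FOXF2, a forkhead factor, and THBS1, thrombospondin, were outside the naming rule. FOXF2 had 1790 bp in the knockdown library and 2996 bp in the control library, and THBS1 had 8464 bp in the knockdown library and 13207 bp in the control library. The median log2 ratio was −0.29, and 21 of the 23 lay below the control. The AP-1 genes were closer to all genes, with a median of −0.14 and 8 of 8 below the control. None was shorter by 1.5-fold, beside 10.8% of all genes. Most of all genes with H3K27ac in both libraries also lay below the control, with an upper quartile of −0.02. FOSL1 had 32977 bp in the knockdown library and 34903 bp in the control library, FOSL2 had 21346 bp in the knockdown library and 22768 bp in the control library, and 7 of the 8 had a SMARCB1 peak. For comparison, SMARCB1 peaks were at 4 of the 16 Hippo genes, 2 of the 11 TEAD partners and 7 of the 23 other targets, beside 28.2% of all protein-coding genes.

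**Figure D4:**
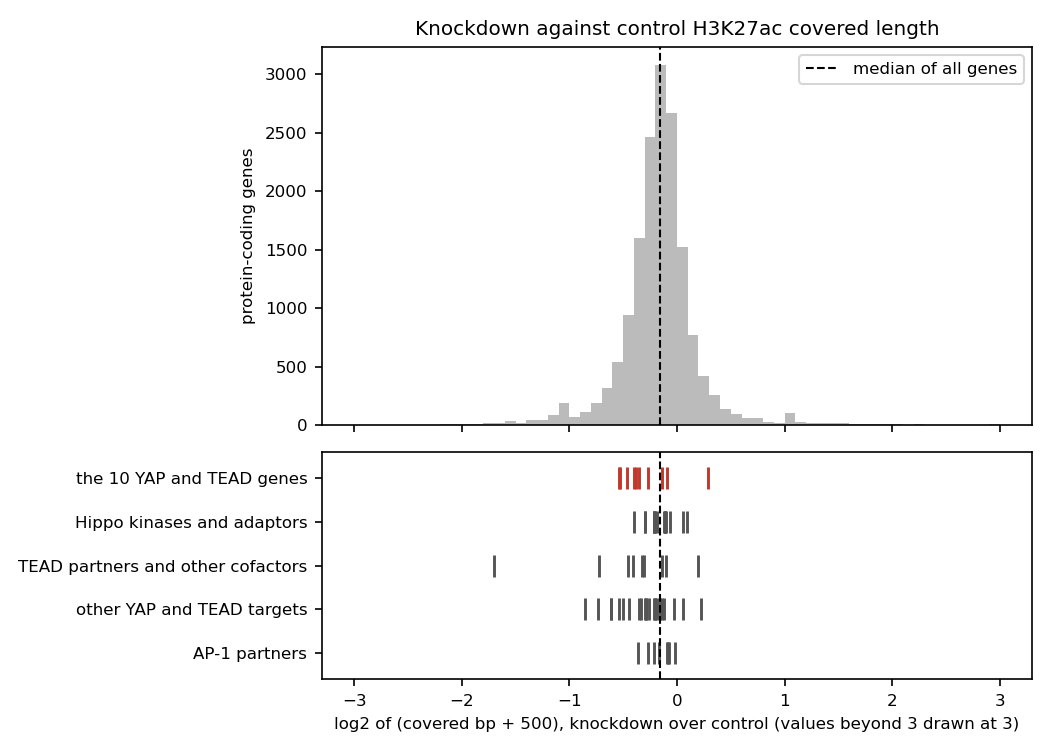
Top, number of protein-coding genes by the log2 ratio of covered length (plus 500 bp), knockdown over control, with the median of all genes dashed; bottom, each tick is a gene of the 10 or of 4 other pathway lists. The ticks of the 10 genes lie mostly left of the dashed line, with ANKRD1 alone right of 0.

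The targeted gene SMARCB1 had 12790 bp in the knockdown library and 14098 bp in the control library within the same window. An shRNA acts on the transcript, so this does not check the knockdown.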

How the data were processed

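The submitters' processing notes name Bowtie2, HOMER and hg38 and give no versions. Per the file headers, the authors called the H3K27ac peaks of each library with HOMER's histone setting against the control input, at 4-fold or more over it. The deposited score is the same for every H3K27ac peak and was not used, and the deposited position columns gave every length. The input library was not analysed. Only autosomal and X peaks entered, which left out 3 per H3K27ac list, and 153 coding records on other sequences were left out of the RefSeq table (GRCh38.p14).

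Covered length is the union of peaks in a gene record plus 20 kb on each side, and a peak counted as shared with an overlap of 1 base. All 39642 window lengths equalled those of bedtools 2.31.1, and the code was tested on simulated data. Computation used pandas 2.3.3 and NumPy 2.4.6 under Python 3.11.15, intervals SciPy 1.17.1 and plots matplotlib 3.10.9. The genes and lists were chosen with earlier results of these data known. All 10 genes are named, and from each other list up to 2 per direction past 1.5-fold with the largest ratio, given at least 1000 bp, and the 2 with the largest length in both. The alternatives changed the window, the peaks kept, merging, the gene assignment, the scaling, the fold, the overlap and the SMARCB1 peaks kept.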

Additional observations from a re-analysis of the deposited data

How the results depend on the processing

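No paired analysis was possible because each group has 1 library. The number of the 10 genes shorter in the knockdown library by 1.5-fold or more was 1, and became 0 with the gene record alone, with windows of 5, 10 and 50 kb, with peaks of 1000 bp or more, after scaling to the covered length of each list and at a fold of 2. It became 2 when peaks within 1000 bp were merged (TEAD1 and TEAD4) and 6 at a fold of 1.25, where 28.7% of all genes were called. With the wider 50% of each list the 1 gene was CCN2, where a knockdown peak of 1457 bp was left out and its control counterpart of 1805 bp kept. With nearest genes only it was CRIM1. There the knockdown peaks beyond its end went to FEZ2, which took its knockdown length from 106364 to 89030 bp. Its control length stayed at 135864 bp. The median log2 ratio of −0.37 moved to −0.13 with the gene record alone, where all genes had −0.14, to −0.25 with a 5 kb window and to −0.21 after scaling, where all genes had −0.01. After scaling 7 of the 10 genes lay below 0. The direction turned at YAP1, to a log2 ratio of 0.0061 with the gene record alone, 0.21 with the wider 50%, 0.014 with peaks of 1000 bp or more and 0.0709 after scaling, and at CCN2, to 0.0599 with the gene record alone and 0.0079 after scaling. With the gene record alone, CCN1 and AMOTL2 were at 0, since both libraries cover each record whole, and the other 82 of 90 values kept their sign. Control-only peaks numbered 5 of 36 with the wider 50% and 13 of 53 with peaks of 1000 bp or more, against 37 of 90. Knockdown-only peaks numbered 2 of 38 and 2 of 49, against 7 of 74. In these alternatives both lists were cut before they were compared. The 10 of 53 given above were compared with all knockdown peaks. Shares of the whole lists under these cuts are not given. With the 1000 SMARCB1 peaks of highest value, 1 gene had one, against 6. In the other pathway lists, 11 genes were shorter and 1 longer with the wider 50%, against 6 and 0. After scaling, 4 genes of those lists were shorter and 0 longer. Other causes were not tested. The sources used here give no depth for the SMARCB1 library.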
